A study of Mus musculus with 10 samples.

Results

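The genes described here are the mouse globins, the protein chains of haemoglobin: the adult alpha globins Hba-a1 and Hba-a2, the adult beta globins Hbb-bs and Hbb-bt, the embryonic beta-like globins Hbb-y and Hbb-bh1, the embryonic alpha-like globin Hba-x, and the theta globins Hbq1a and Hbq1b. They were chosen by name, together with the alpha globin chaperone Ahsp, and not by their values. Of the 10 genes listed, 9 were analysed among the 53465 genes of the deposited table, and Ahsp is not analysed here. RNA sequencing had been carried out on 10 libraries of erythroblasts, the nucleated precursors of red cells, taken from C57BL/6 mouse spleens 11 days after 5-FU, a chemotherapy drug that depletes dividing blood precursors. The 4 genotypes were wild type (replicates 1 and 3), miR-144/451-null (replicates 1 and 3), Nrf2-null (replicates 1, 2 and 3) and double-null, lacking both (replicates 1, 2 and 3). All 4 groups had received 5-FU. The labels name neither the alleles nor the age of the mice, and they do not say whether a library came from 1 mouse or from a pool, so p-values here measure only how far these samples spread, which may be technical.

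Haemoglobin is a tetramer of alpha-like and beta-like chains that carry heme. In the mouse the alpha-like and the beta-like genes lie in separate clusters, each driven by distant enhancers, and adult erythroblasts use mainly the adult genes of each cluster. Free alpha chains are toxic to red cell precursors, which is why the balance between alpha and beta chains is studied in anaemias. The microRNAs miR-144 and miR-451 are abundant in erythroblasts, and Nrf2, the product of Nfe2l2, switches on antioxidant genes.

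The promoters of 5 globins are shown because the results turn on these genes: the most abundant alpha and beta genes, the minor adult beta gene that differs from the major one, and the embryonic and theta genes that differed between genotypes. Each stretch runs from 120 bases before the annotated start to 20 bases from it, was taken from RefSeq (GRCm38.p6, a later build than the mm9 of the deposited files), and is written 5′ to 3′ on the gene's strand. Of the 9 globins, 8 matched a promoter entry by symbol. Capitals mark 4 words that were searched: the CACCC box, whose letters occur in Kruppel-like factor sites, the CCAAT box (which reads ATTGG when it lies on the other strand), the GATA box, searched as GATAA, and the TATA box, searched as TATAA. Hba-a1 lies at chr11:32283552-32283691 on the plus strand, Hbb-bs at chr7:103827909-103828048, Hbb-bt at chr7:103813904-103814043 and Hbb-y at chr7:103853188-103853327 on the minus strand, and Hbq1b at chr11:32286844-32286983 on the plus strand.
Hba-a1: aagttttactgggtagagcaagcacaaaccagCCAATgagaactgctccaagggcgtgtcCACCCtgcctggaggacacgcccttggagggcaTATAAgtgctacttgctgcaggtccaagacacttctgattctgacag
Hbb-bs: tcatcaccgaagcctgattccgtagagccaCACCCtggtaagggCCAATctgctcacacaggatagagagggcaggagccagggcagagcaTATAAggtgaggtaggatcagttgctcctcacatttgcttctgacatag
Hbb-bt: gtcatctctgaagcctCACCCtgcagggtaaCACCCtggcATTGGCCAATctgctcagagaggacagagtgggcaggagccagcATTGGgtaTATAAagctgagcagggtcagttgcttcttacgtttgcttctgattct
Hbb-y: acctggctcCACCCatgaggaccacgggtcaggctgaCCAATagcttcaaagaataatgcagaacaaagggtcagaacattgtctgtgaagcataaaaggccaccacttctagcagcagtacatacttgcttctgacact
Hbq1b: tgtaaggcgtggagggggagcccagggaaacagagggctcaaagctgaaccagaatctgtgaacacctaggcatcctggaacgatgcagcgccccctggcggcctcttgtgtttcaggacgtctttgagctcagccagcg

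In Hba-a1 the CCAAT box began 88 bases before the start, the CACCC box 60 and the TATA box 27. Hbb-bs held the same words with CACCC first, 90 bases before the start, then the CCAAT box at 76 and the TATA box at 29. Hbb-bt held CACCC boxes at 104 and 89 and a TATA box at 28, with a CCAAT box at 75 and, on the other strand, at 80 and 36. The windows of Hbb-bs and Hbb-bt were 74.6% identical after alignment, against 95.8% for Hba-a1 and Hba-a2 and 96.4% for Hbq1a and Hbq1b. Hbb-y held a CACCC box at 111 and a CCAAT box at 83 bases before the start, and Hba-x held a GATA box at 107, a CACCC box at 95 and a TATA box at 28. Neither Hbq1a nor Hbq1b held any of the 4 words. Searched on both strands, the CACCC box occurred in 35.1% of 32851 RefSeq promoter windows of this length, the CCAAT box in 23.1%, the TATA box in 13% and the GATA box in 12%. A match is a description of letters and not a bound site.

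Some copies cannot be told apart fully by reads, and the handling of shared reads is not given in the sources used here. In GENCODE M21 transcripts, 75.5% of the 31-base words of Hba-a1 and 92.6% of those of Hba-a2 also occurred in another gene, nearly all of them in the other copy. The share was 54.4% for Hbb-bs and 59.4% for Hbb-bt, shared with each other, and 44.9% for Hbq1a and 35.7% for Hbq1b. Hbb-y, Hbb-bh1 and Hba-x shared none. Adult alpha, adult beta and theta counts were therefore also analysed as the sums of their copies.

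Libraries held 13087827 to 15131036 counts, and 14110 genes passed the low-count filter and were tested. As a check of the labels, Mir144 had 9 to 17 counts where the cluster is present and 0 in all 5 libraries without it, and Nfe2l2 had 668 to 843 counts in Nrf2-null and double-null libraries against 780 to 1468 in the others. Where in Nfe2l2 these reads fell is not known, so its counts do not check the Nrf2 labels. Xist and Y-linked counts read as female in the wild type pair and in double-null replicate 3 and as male in the other 7, so for each single null set against wild type, sex and genotype cannot be told apart. Double-null alone held both sexes, so a term for sex in the fit rests on its replicate 3 against its replicates 1 and 2. All 9 erythroblast markers were detected in every library, with a summed level of 25436 to 47294 normalised CPM (counts per 1000000 after scaling). Markers of other cells were also present: 8 B cell markers summed to 666 and 844 CPM in miR-144/451-null, 1142 and 1436 in wild type, 337 to 741 in double-null and 888 to 1035 in Nrf2-null. The 10 macrophage markers summed to 80.5 to 377 CPM in 9 libraries and to 1061 in Nrf2-null replicate 3. The 9 neutrophil markers summed to 1118 to 1207 CPM in double-null, 174 to 1177 in Nrf2-null, 358 and 947 in miR-144/451-null, and 427 and 468 in wild type. T cell markers summed to at most 71.8 CPM and megakaryocyte markers to at most 196, and of the markers of these 5 cell types 1 was at 0 counts, a megakaryocyte marker in Nrf2-null replicate 3. The part of these cells in the globin results was not tested.

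Of the 4 adult globin genes, 3 were the most abundant messages measured per length. In FPKM (counts scaled to gene length and library total), Hbb-bs ranked 1, Hba-a1 2 and Hbb-bt 3 in every library. Together the 9 genes took 7.39% and 8.46% of all counts in wild type replicates 1 and 3, and 7.93% and 8.0% in miR-144/451-null replicates 1 and 3. They took 7.08%, 9.49% and 9.46% in Nrf2-null replicates 1, 2 and 3, and 10.7%, 12.2% and 9.86% in double-null replicates 1, 2 and 3. By this share each double-null library lay above all 7 others, while the other 3 groups overlapped. By share of summed FPKM, double-null replicate 3 (33.0%) lay below Nrf2-null replicate 3 (33.5%). Averaged over Nrf2 status, cluster loss went with a globin share 1.13-fold as high (log2 difference 0.17, exact permutation test over libraries, two-sided, p = 0.117), and Nrf2 loss, averaged over cluster status, with a share 1.22-fold as high (log2 difference 0.28, p = 0.07 by the same exact test). Both p-values were 0.117 after adjustment over the pair of tests, and the 120 arrangements for cluster loss allow no p below 0.0167. Without wild type replicate 3 the first became 0.22, and without Nrf2-null replicate 1 the other became 0.35, each with an adjusted exact permutation p of 0.0333. In bulk RNA, a change in the number of late erythroblasts and a change in globin message per cell cannot be told apart.

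**Figure D1:**
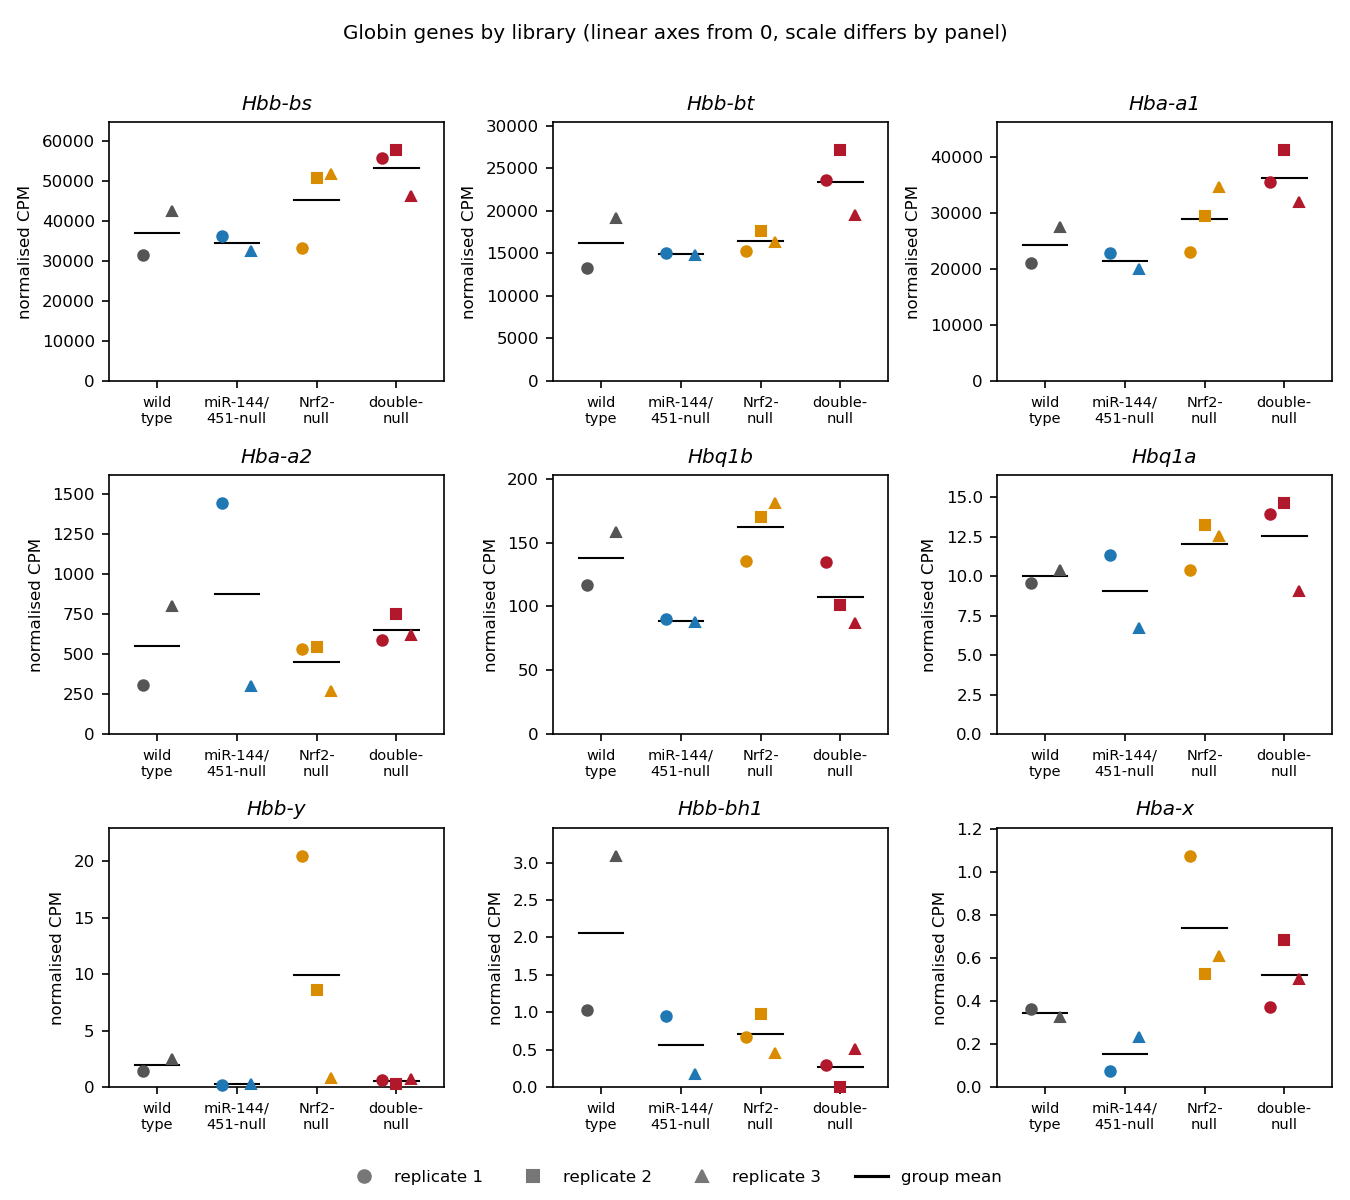
Normalised CPM of the 9 globin genes (vertical axes, linear from 0, scale differing by panel) in the 10 libraries by genotype (horizontal axis), with symbols for replicate numbers and a line at each group mean. Hbb-bt lay between 19487 and 27189 CPM in double-null and between 15297 and 17633 in Nrf2-null, and Hbb-y was at 20.5 and 8.64 CPM in Nrf2-null replicates 1 and 2 and below 3 CPM in the other 8 libraries.

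The most abundant alpha gene, Hba-a1, was at 28858 and 31792 FPKM in wild type replicates 1 and 3 and at 29484 and 29112 FPKM in miR-144/451-null replicates 1 and 3. It was at 27791, 34920 and 39118 FPKM in Nrf2-null replicates 1, 2 and 3, and at 40404, 48720 and 39409 FPKM in double-null replicates 1, 2 and 3. In FPKM each double-null library exceeded all others, while in normalised CPM double-null replicate 3 lay below Nrf2-null replicate 3. In edgeR's quasi-likelihood fit on counts, Hba-a1 was 0.76 ± 0.23 (SE) higher on the log2 scale in double-null than in miR-144/451-null, with an adjusted p of 0.325, and 0.58 ± 0.23 higher than in wild type, with an adjusted p of 0.106. Against Nrf2-null the difference was 0.32 ± 0.20 (edgeR, adjusted p = 0.26), and between miR-144/451-null and wild type it was −0.18 ± 0.25 (edgeR, adjusted p = 0.775). None passed the threshold, an adjusted p under 0.05. DESeq2 put the differences of Hba-a1 from miR-144/451-null and from wild type past it, with adjusted p of 0.042 and 0.0465.

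The other alpha copy, Hba-a2, was counted far lower and varied within genotypes. It was at 511 and 1121 FPKM in wild type, with 2269 and 534 in miR-144/451-null, 781, 782 and 369 in Nrf2-null, and 814, 1075 and 931 in double-null, in order of replicate. Its counts were 6.32% of those of Hba-a1 in miR-144/451-null replicate 1 and 0.774% in Nrf2-null replicate 3, with the other 8 libraries between 1.45% and 2.90%. The 2 miR-144/451-null libraries thus stood further apart than any 2 genotype means. Since 92.6% of the words of Hba-a2 occur in Hba-a1 as well, these values can depend on how shared reads were placed, and the sum of both copies is the firmer measure of adult alpha globin.

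Hbb-bs, the major adult beta gene in these libraries, was at 45743 and 51928 FPKM in wild type, with 49475 and 49978 in miR-144/451-null, 42354, 63602 and 61838 in Nrf2-null, and 67058, 72028 and 60301 in double-null. Double-null replicate 3 lay below Nrf2-null replicates 2 and 3, so these groups overlapped, and double-null exceeded Nrf2-null by 0.24 ± 0.22 on the log2 scale (edgeR, adjusted p = 0.445). Hbb-bt, the minor adult beta gene, was at 21065 and 25531 FPKM in wild type, with 22428 and 24941 in miR-144/451-null, 21399, 24131 and 21285 in Nrf2-null, and 31086, 37068 and 27804 in double-null. All 3 double-null libraries lay above all 7 others for Hbb-bt. The difference from Nrf2-null was 0.52 ± 0.19 on the log2 scale (1.43-fold, 95% interval 1.07 to 1.91), with an edgeR adjusted p of 0.0645 that missed the threshold. DESeq2 gave 0.50 with an adjusted p of 0.0274, and over 18 alternatives the adjusted p of Hbb-bt ran from 0.0131 to 0.2, passing in 6 of them.

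Summed over copies, adult alpha globin was at 22287 ± 2819 normalised CPM in miR-144/451-null (SD, n = 2), 24820 ± 4982 in wild type (n = 2), 29448 ± 5707 in Nrf2-null (n = 3) and 36895 ± 4806 in double-null (n = 3). Adult beta globin followed the same order of means, at 49286 ± 2825 in miR-144/451-null, 53219 ± 11998 in wild type, 61593 ± 11448 in Nrf2-null and 76681 ± 9935 in double-null. Each genotype overlapped the next in this order, and double-null did not overlap miR-144/451-null or wild type. With Nrf2 present, cluster loss went with log2 differences of −0.16 ± 0.25 for the alpha sum and −0.11 ± 0.25 for the beta sum, with 95% intervals of 0.614- to 1.31-fold and 0.628- to 1.37-fold. With Nrf2 absent the differences were 0.33 ± 0.20 and 0.32 ± 0.21, with intervals of 0.918- to 1.71-fold and 0.907- to 1.71-fold. The interaction, the difference between these 2 effects, was 0.48 ± 0.32 for alpha and 0.43 ± 0.33 for beta (edgeR, adjusted p = 0.999 for both), so an unequal effect of cluster loss was not detectable with these libraries. Without scaling factors the median of all genes in the first comparison moved to 0.15, and the alpha and beta sums to −0.03 and 0.03.

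For Nrf2 loss, no sum passed either. With the cluster present the differences were 0.25 ± 0.23 for alpha and 0.21 ± 0.23 for beta, and with the cluster absent they were 0.73 ± 0.23 and 0.64 ± 0.24. All 3 double-null libraries lay above both miR-144/451-null libraries for each sum, but with edgeR adjusted p of 0.333 and 0.398 neither passed. Double-null exceeded wild type by 0.57 ± 0.23 (1.49-fold) for alpha and 0.53 ± 0.24 (1.44-fold) for beta, with edgeR adjusted p of 0.113 and 0.149. With a term for sex, the differences between Nrf2-null and wild type became −0.02 for alpha and −0.11 for beta.

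Of the 8 globins tested singly, 2 passed for double-null against Nrf2-null, both lower, where 27.3% of all genes passed, 14.4% higher and 12.9% lower, so that 2 of 8 is close to the share of all genes. In the same comparison 7 of the 8 B cell markers and 4 of the 9 erythroblast markers also fell. None passed by edgeR in the other 5 comparisons. In those, the shares of all genes passing were 4.63% for miR-144/451-null against wild type (2.4% higher and 2.23% lower), 0.191% for Nrf2-null against wild type, 0.0638% for double-null against miR-144/451-null, 17.2% for double-null against wild type (8.26% higher and 8.95% lower) and 0.0638% for the interaction. The number of all genes passing for miR-144/451-null against wild type, 653, moved with single libraries. Leaving out a wild type library, replicate 1 or 3, gave 200 or 40, leaving out replicate 1 or 3 of miR-144/451-null gave 81 or 333, and a fit lacking Nrf2-null replicate 1 gave 390. For double-null against wild type it went from 2428 to 964 and 775 without wild type replicates 1 and 3, and to 1573 without double-null replicate 1. At an unadjusted edgeR p under 0.05, 1, 1, 3, 3 and 0 of the 8 passed in the other 5 comparisons, in the order given above. The share of all genes at that unadjusted level was not counted, so these numbers are not read further. DESeq2 called 0, 0, 1, 3 and 0 of the 8 in the same order. Of all genes it called 998 of 11637, 141 of 13131, 175 of 13131, 2788 of 14625 and 24 of 16618. With copies summed the shares of all genes were 4.62%, 27.3%, 0.191%, 0.0638%, 17.2% and 0.0638% for the 6 comparisons, and of the 3 sums the theta sum alone passed, for double-null against Nrf2-null.

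**Figure D2:**
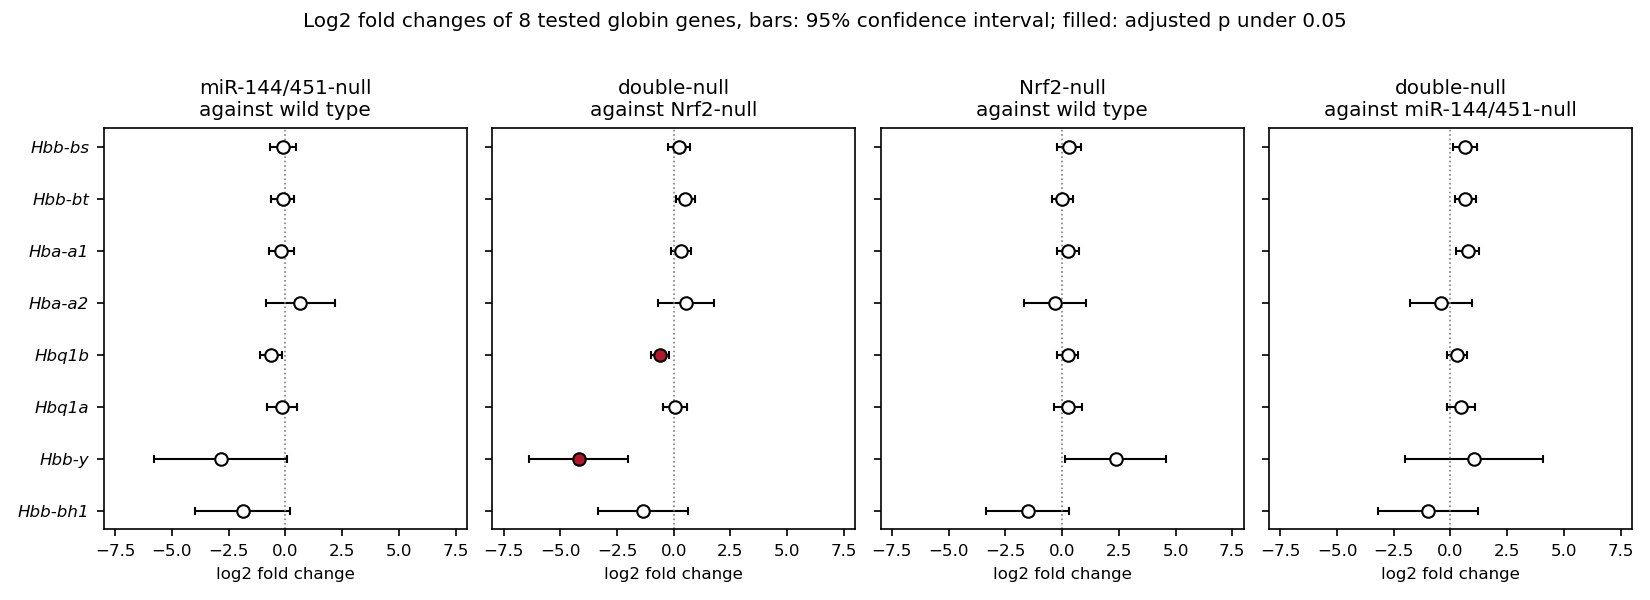
Log2 fold changes (horizontal axes) of the 8 globin genes tested (vertical axis) in 4 comparisons of edgeR's quasi-likelihood fit, with bars for the 95% confidence interval and filled circles for an adjusted p under 0.05. The filled circles are Hbb-y at −4.18 and Hbq1b at −0.59, both in double-null against Nrf2-null, and the embryonic genes have the widest bars.

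Theta globin, an alpha-like chain whose function is not established, was lower relative to adult alpha globin in every library lacking the cluster. Hbq1b, the more abundant copy, was at 179 and 205 FPKM in wild type, with 130 and 143 in miR-144/451-null, 185, 226 and 230 in Nrf2-null, and 172, 134 and 120 in double-null. Each miR-144/451-null library lay below both wild type libraries, and each double-null library below all 3 Nrf2-null libraries. Hbq1b fell by 0.59 ± 0.18 on the log2 scale from Nrf2-null to double-null (1.51-fold lower, edgeR adjusted p = 0.0335), and its difference between miR-144/451-null and wild type was −0.63 ± 0.22 (edgeR adjusted p = 0.151). The call in double-null was kept in 12 of 18 alternatives. It was lost without double-null replicate 3, the female library, at −0.44 with an adjusted p of 0.132, and with a term for sex, at −0.46 with an adjusted p of 0.117. In both alternatives the double-null level rests on replicates 1 and 2 alone, so they show dependence on the same library. The call was also lost without Nrf2-null replicate 2 at −0.56 (adjusted p = 0.0855), Nrf2-null replicate 3 at −0.51 (adjusted p = 0.105) or double-null replicate 2 at −0.55 (adjusted p = 0.0865), all by edgeR.

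Hbq1a, the less abundant theta copy, showed no such separation. It was at 17.7 and 16.2 FPKM in wild type, with 19.7 and 13.2 in miR-144/451-null, 17.0, 21.1 and 19.1 in Nrf2-null, and 21.3, 23.2 and 15.1 in double-null. The genotypes overlapped, and double-null differed from Nrf2-null by 0.06 ± 0.25 on the log2 scale (edgeR adjusted p = 0.883). The theta sum, in which Hbq1b dominates, fell by 0.54 ± 0.18 (edgeR adjusted p = 0.0468) in that comparison and kept its call in 7 of 18 alternatives.

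Theta counts came to 0.592% and 0.597% of adult alpha counts in wild type and to 0.418% and 0.465% in miR-144/451-null. They came to 0.624%, 0.610% and 0.556% in Nrf2-null and to 0.412%, 0.275% and 0.296% in double-null. A ratio within a library does not depend on the scaling factors, and all 5 libraries lacking the cluster lay below all 5 that carry it. By the theta sum alone they overlapped: double-null replicate 1, at 149 normalised CPM, lay above wild type replicate 1 (126) and Nrf2-null replicate 1 (146). From Nrf2-null to double-null the theta sum fell by 0.54 and the adult alpha sum was 0.33 higher on the log2 scale, and both enter the ratio. Averaged over Nrf2 status the ratio was 1.58-fold lower without the cluster (log2 difference −0.66, exact permutation test of cluster labels within Nrf2 status, two-sided, p = 0.0167, the smallest that 120 arrangements can give). Adjusted over the 10 ratio tests this p became 0.167, which does not pass. The difference was −0.75 to −0.60 with each library left out in turn. No wild type library read as male, so among male libraries cluster loss could be compared only within the Nrf2-deficient genotypes. There, double-null replicates 1 and 2 differed from the Nrf2-null libraries by −0.82, and 10 arrangements allow no p below 0.1. Over all libraries, male and female, loss of Nrf2 went with −0.22 (p = 0.21 by the exact permutation test).

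The embryonic beta-like gene Hbb-y, which encodes a chain of primitive red cells, had at most 30 counts in 8 of the 10 libraries. It had 24 and 30 counts in wild type, with 3 and 5 in miR-144/451-null, 305, 115 and 10 in Nrf2-null, and 8, 4 and 10 in double-null. Nrf2-null replicates 1 and 2 stood far above the rest, while Nrf2-null replicate 3 had as many counts as double-null replicate 3. Both wild type libraries lay above all 5 libraries that lack the cluster. From Nrf2-null to double-null, Hbb-y fell by 4.18 ± 0.97 on the log2 scale (18.2-fold lower, 95% interval 0.0121- to 0.249-fold, edgeR adjusted p = 0.0119). It passed in all 18 alternatives, with −3.10 without Nrf2-null replicate 1 and −4.73 without Nrf2-null replicate 3, although the 3 Nrf2-null values themselves ran from 0.764 to 20.5 CPM. Every alternative kept Nrf2-null replicate 1 or 2 or both, so they cannot show whether the fall depends on these 2 libraries. Between miR-144/451-null and wild type the difference was −2.86 ± 1.31 (edgeR adjusted p = 0.287), and between Nrf2-null and wild type it was 2.37 ± 0.99 (edgeR adjusted p = 0.398).

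Hbb-bh1, the other embryonic beta-like gene, had 17 and 38 counts in wild type, with 13 and 3 in miR-144/451-null, 10, 13 and 6 in Nrf2-null, and 4, 0 and 7 in double-null. The wild type libraries were the highest of the 10 for this gene. Double-null differed from wild type by −2.88 ± 0.90 on the log2 scale, with an edgeR adjusted p of 0.0503 that missed the threshold, and DESeq2 gave −2.92 with an adjusted p of 0.0227. It became −1.90 without wild type replicate 3 and −3.65 without double-null replicate 3 (edgeR adjusted p of 0.347 and 0.0621), and with a term for sex the edgeR adjusted p was 0.374. Both wild type libraries are female, and the female double-null replicate 3 had 7 counts. Hba-x, the embryonic alpha-like gene, had 6 and 4 counts in wild type, with 1 and 4 in miR-144/451-null, 16, 7 and 8 in Nrf2-null, and 5, 9 and 7 in double-null, and failed the low-count filter. The 0 of Hbb-bh1 in double-null replicate 2 allows up to 3 counts, which is 0.218 CPM of raw depth, by counting error alone. Hbb-bh1 and Hbb-y passed the filter mostly through the genotypes in which they are high.

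Embryonic beta-like counts (Hbb-y and Hbb-bh1), scaled to 1000000 adult beta counts, came to 55.6 and 89.6 in wild type and to 22.7 and 9.91 in miR-144/451-null. They came to 438, 141 and 18 in Nrf2-null and to 11.2, 3.58 and 18.6 in double-null. Wild type and miR-144/451-null did not overlap, whereas double-null replicate 3 exceeded Nrf2-null replicate 3. Averaged over Nrf2 status the ratio was 7.32-fold lower without the cluster (log2 difference −2.87, exact permutation test, two-sided, p = 0.0333, 0.167 after adjustment over the 10 ratio tests). With each library left out in turn the log2 difference ran from −3.50 to −2.35. Among male libraries, which include no wild type, it was −4.03 for double-null replicates 1 and 2 against the Nrf2-null libraries alone. Within the pair of Nrf2-deficient genotypes alone the exact permutation p was 0.2. Embryonic counts were 0.0438% of adult beta counts in Nrf2-null replicate 1, the highest of the 10 libraries.

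**Figure D3:**
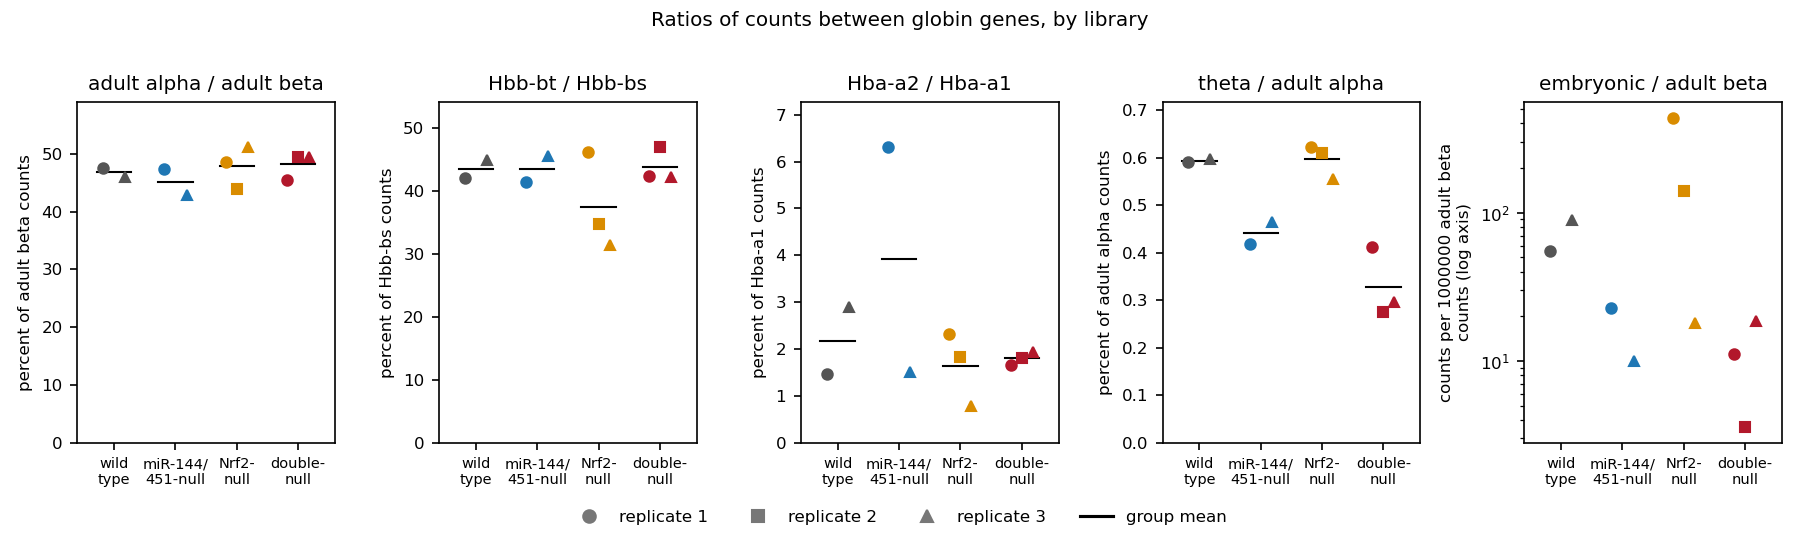
Ratios of counts between globin genes (vertical axes, percent from 0, or counts scaled to 1000000 adult beta counts on a log axis in the last panel) by genotype (horizontal axis), with symbols for replicate numbers and a line at each group mean in the linear panels. The alpha to beta ratio spans 42.9% to 51.3% over all libraries, and the theta to alpha ratio separates the 5 libraries lacking the cluster, at 0.275% to 0.465%, from the other 5, at 0.556% to 0.624%.

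The ratio between the adult chains overlapped in all genotypes. Adult alpha counts were 47.6% and 45.9% of adult beta counts in wild type, with 47.3% and 42.9% in miR-144/451-null, 48.5%, 43.9% and 51.3% in Nrf2-null, and 45.5%, 49.5% and 49.5% in double-null. Cluster loss went with a log2 difference of −0.02 (exact permutation test, two-sided, p = 0.75) and Nrf2 loss with 0.06 (p = 0.3 by the same exact test). With each library left out in turn, the 2 differences stayed within −0.06 to 0.01 and 0.03 to 0.10.

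Within the beta pair, Hbb-bt counts were 34.7% and 31.5% of Hbb-bs counts in Nrf2-null replicates 2 and 3 and 41.5% to 47.1% in the other 8 libraries, Nrf2-null replicate 1 included at 46.2%. The low ratio was thus seen in 2 of the 3 Nrf2-null libraries and in no other genotype, so it was not shared by the whole Nrf2-null group. The exact permutation tests gave p = 0.283 for cluster loss and p = 0.37 for Nrf2 loss. Those 2 libraries do not coincide with the pair high in Hbb-y, which are Nrf2-null replicates 1 and 2. Nrf2-null replicate 3 was also the library with the highest macrophage markers and the lowest Hba-a2 to Hba-a1 ratio.

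Genes known to act on globin transcription were examined as a list of 21, all of them tested. With Nrf2 absent, cluster loss went with 5 lower and 2 higher of the 21, beside 12.9% and 14.4% of all genes, and with Nrf2 present with 2 lower and 0 higher, beside 2.23% and 2.4%. The list's median log2 difference was −0.15 and −0.27, against 0.02 and 0.02 over all genes. Klf1, the erythroid Kruppel-like factor that binds CACCC letters of the adult beta promoter, was at 270 and 296 CPM in miR-144/451-null, 429 and 577 in wild type, 587, 546 and 541 in Nrf2-null, and 273, 210 and 299 in double-null. All 5 libraries lacking the cluster lay below all 5 others for Klf1, which fell by 0.83 ± 0.20 with Nrf2 present (edgeR adjusted p = 0.0385) and by 1.1 ± 0.16 with Nrf2 absent (edgeR adjusted p = 0.000785). Klf3, a repressor that binds the same letters, fell by 1.23 ± 0.25 and 1.29 ± 0.20 in these comparisons (edgeR adjusted p = 0.0189 and 0.00107). With a term for sex the differences with Nrf2 present became −0.52 for Klf1 and −1.61 for Klf3 and no longer passed (edgeR adjusted p = 0.56 and 0.186), and over 18 alternatives these calls were kept in 7 and 13. With Nrf2 absent both were kept in all 18.

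With Nrf2 absent, Tal1, Nfe2 and Nr2c2 fell as well, by 0.54 ± 0.16, 0.57 ± 0.18 and 0.47 ± 0.14 on the log2 scale. Tal1 belongs to the enhancer complex of the globin clusters, Nfe2 is the erythroid partner of small Maf proteins, and Nr2c2 is a nuclear receptor that represses embryonic globin genes. Chd4, a remodelling subunit of repressor complexes, rose by 0.40 ± 0.12, and Bach1, a heme-sensing repressor, by 0.87 ± 0.26 (edgeR, adjusted p of 0.0266 to 0.037 for these 5). Of 18 alternatives, 12 kept the call of Tal1, 11 that of Nfe2, 10 those of Nr2c2 and Chd4, and 13 that of Bach1. Double-null against wild type had 4 of the 21 lower and 0 higher, beside 8.95% and 8.26% of all genes. These were Klf1, Klf3, Nfe2 and Bcl11a, a repressor of embryonic globin genes, which fell by 0.86 ± 0.27 (edgeR adjusted p = 0.0489). With a term for sex only Klf3 of these 4 passed (edgeR adjusted p = 0.0484), and Bcl11a was at −0.45. Gata1, the central erythroid factor, was at 294 to 379 CPM in the 10 libraries and passed in no comparison. In the other 3 comparisons, Nrf2-null against wild type, double-null against miR-144/451-null and the interaction, none of the 21 passed by edgeR after adjustment. The unadjusted edgeR p was under 0.05 for 2, 1 and 0 of them. The share of all genes at that unadjusted level was not counted, so these numbers are not read further.

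**Figure D4:**
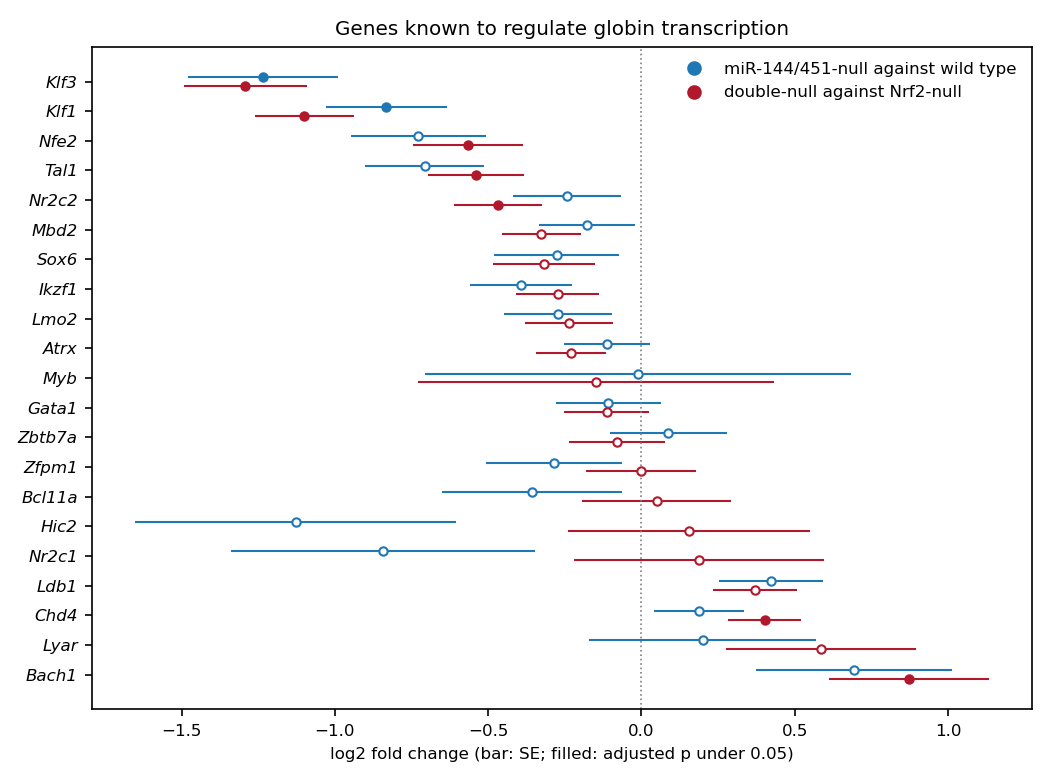
Log2 fold changes (horizontal axis) with SE bars of 21 regulators of globin transcription (vertical axis), with miR-144/451-null against wild type in blue and double-null against Nrf2-null in red, and filled circles for an adjusted p under 0.05. Klf1 and Klf3 are filled in both comparisons, at −0.83 and −1.23 in blue and −1.1 and −1.29 in red.

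Other genes bearing on globin protein were counted in 3 further lists. Among 9 genes that handle free alpha chains or control globin translation, 3 rose and 1 fell in double-null against Nrf2-null, beside 14.4% and 12.9% of all genes. Ube2o, an enzyme that marks free alpha globin for removal, rose by 0.68 ± 0.21 and Ulk1, an autophagy kinase that clears it, by 0.77 ± 0.21, with Hsp90ab1, a chaperone gene, at 0.78 ± 0.17, while Atf4, the effector of the heme-regulated kinase, fell by 0.52 ± 0.14 (edgeR, adjusted p of 0.00743 to 0.0359). The call of Hsp90ab1 was kept in 18 of 18 alternatives, those of Ulk1 and Atf4 in 13 and that of Ube2o in 11. Among 14 genes of heme supply, 0 rose and 3 fell in that comparison, beside the same 14.4% and 12.9%: Alad by 0.48 ± 0.16, Cpox by 0.45 ± 0.14, both enzymes of heme synthesis, and Slc25a38, a mitochondrial glycine carrier, by 0.61 ± 0.15. Of 18 alternatives, 7 kept the call of Alad, 9 that of Cpox and 17 that of Slc25a38. With Nrf2 present Cpox fell by 0.77 ± 0.17 and no other gene of heme supply passed, and with a term for sex Cpox was at −0.67 and no longer passed (edgeR adjusted p = 0.453). Among 16 other late erythroid genes, 6 fell and 1 rose with Nrf2 absent, beside 12.9% and 14.4% of all genes, and 2 fell with Nrf2 present, beside 2.23%, with list medians of −0.45 and −0.54. Hemgn, a nuclear protein of erythroid differentiation, fell by 1.45 ± 0.18 and 1.22 ± 0.22 on the log2 scale in these comparisons, and with a term for sex it passed in the first alone (edgeR adjusted p = 0.0023 and 0.254). The gene that rose with Nrf2 absent was Tmcc2, by 0.80 ± 0.23. The adult globin sums, at 0.33 and 0.32 with Nrf2 absent and −0.16 and −0.11 with Nrf2 present, lay above both medians.

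The genes whose level followed the adult globin sum most closely over the 10 libraries were picked by Pearson's r of log2 CPM among 6946 genes with a mean of at least 10 CPM. They were Bpgm (r = 0.96, rho = 0.88), Gabarapl2 (r = 0.96, rho = 0.96), Ube2r2 (r = 0.95, rho = 0.93), Bnip3l (r = 0.94, rho = 0.96) and Dnajc28 (r = 0.92, rho = 0.96). These values describe 10 libraries that share scaling factors and fall into 4 genotypes, and the genes were chosen for them. Bpgm, which makes the 2,3-bisphosphoglycerate that lowers the oxygen affinity of haemoglobin, was at 1330 and 1172 CPM in miR-144/451-null, 1052 and 1534 in wild type, 1097, 1981 and 1928 in Nrf2-null, and 1978, 2379 and 2041 in double-null. Like the adult sums it was low in Nrf2-null replicate 1 and high in the other 2 Nrf2-null libraries. None of the 5 passed in any comparison.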

How the data were processed

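The members and gene lists were chosen with earlier results of these data known. Raw counts per Ensembl gene, in 1 table, and FPKM values, in a file per library, were deposited by the authors. The deposited FPKM equalled the count over gene length and library total (196970 of 196970 values within 0.1%). Per the labels' protocols, erythroblasts were isolated with a Miltenyi Biotec kit, RNA was harvested with Trizol and a VAHTS kit made the libraries. HISAT2 2.1.0, Bowtie2 2.2.3, TopHat2, CASAVA and the build mm9 are listed, without roles, per the submitters' processing notes. How reads were counted, on which annotation and with what strandedness is not given in the sources used here. Symbols came from the reference tables and matched 99.6% of identifiers, and Ahsp is not reported here.

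Counts of all 10 libraries entered 1 fit in R 4.3.3 with edgeR 4.0.16 (TMM factors, filterByExpr, robust quasi-likelihood test, two-sided, Benjamini-Hochberg over 14110 genes, threshold 0.05), with a coefficient per genotype and 6 residual degrees of freedom. Copies were summed in a further fit. DESeq2 1.42.0 was an alternative. The fit and the permutation test were tested on simulated data. Log2 ratios of counts and the globin share were tested by exact permutation over libraries within strata of the other genotype factor, with 0.5 added to both counts in all libraries where a ratio met a 0. FPKM served for levels only, and prior count 2 for log2 CPM. Named genes were all members and their sums, regulators passing in any comparison, 5 genes most like the adult globin sum, Mir144 and Nfe2l2, and, chosen after their values were seen, genes of the other lists that passed. Alternatives for list genes were added after seeing the data. Replicates differed by more than sampling noise (chi-square per degree of freedom 17.3 to 30.4). Depths of 13087827 to 15131036 counts limit precision for the embryonic genes.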

Additional observations from a re-analysis of the deposited data

How the results depend on the processing

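No globin or globin sum that passed with the settings of the report changed direction under any alternative run. Hba-a2 in miR-144/451-null against wild type passed with no filter alone, and its log2 difference ran from −0.87 to 1.52. Numbers of globins passing moved most with the low-count filter, and those of all genes moved too. With no filter, 27087 genes were tested. For miR-144/451-null against wild type 2 globins then passed, beside 1254 of all genes (653 of 14110 with the filter). For double-null against Nrf2-null 4 passed, beside 4346 (3850), and for Nrf2-null against wild type 1, beside 716 (27). For double-null against miR-144/451-null 1 passed, beside 743 (9), and for double-null against wild type 3, beside 3205 (2428). DESeq2 gave 3 for double-null against wild type, beside 2788 of 14625 genes, and 1 for double-null against miR-144/451-null, beside 175 of 13131. Library totals without scaling factors gave 2 for double-null against wild type, beside 2232 of 14110 genes. The adult alpha sum passed at 0.49 (double-null against wild type, no scaling factors), 0.60 (the same, no filter) and 0.71 (double-null against miR-144/451-null, no filter). With each Nrf2-null or double-null library left out in turn, 1 to 2 globins passed for double-null against Nrf2-null, beside 2646 to 3555 of all genes. For double-null against wild type 0 to 1 passed, beside 1573 to 2648, and for miR-144/451-null against wild type 0 to 1, beside 390 to 691. With each library of any genotype left out in turn, the log2 difference in globin share ran from 0.10 to 0.22 for cluster loss. For Nrf2 loss it ran from 0.24 to 0.35. A term for sex is set by double-null replicate 3 against double-null replicates 1 and 2 alone. It left 1 globin passing for double-null against Nrf2-null, Hbb-y, beside 2880 of 14110 genes. It lowered the number of all genes passing in miR-144/451-null against wild type from 653 to 1. The cause of these changes was not tested. The ratio to Ahsp could not be run.

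The labels do not say that replicate numbers pair libraries. Same-numbered deviations correlated at 0.004, −0.061 and −0.034 between Nrf2-null and double-null and at −0.017 between wild type and miR-144/451-null, and at most at 0.287 (miR-144/451-null and double-null replicates 1), so the numbers were not taken as pairs. The replicate block left 1 globin passing for double-null against Nrf2-null, Hbb-y, beside 3471 of 14110 genes, with Hbq1b at −0.59 (adjusted p = 0.0618 by edgeR).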
